A study of Homo sapiens with 12 samples.

Results

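The genes of the apoptosome and of the caspases that act around it were followed across U2OS Tet-On cells, a human osteosarcoma line in which doxycycline turns on a stably integrated construct. The 8 genes, APAF1, CYCS, DIABLO, CASP9, CASP2, CASP8, CASP10, and CASP6, were taken by symbol from the 25369 genes of the deposited counts, and all 8 passed the filter on low counts that left 16625 genes for testing. The 4 cell lines carried the empty pTRE vector, HA-tagged WT E2F1, HA-tagged E2F1 with the R109K substitution, which removes an arginine that PRMT1 methylates, or HA-tagged KK, in which the neighboring arginines that PRMT5 methylates are lysines. Every line, pTRE included, was kept under G418 and hygromycin B and received doxycycline at 1 µg/ml for 24 hours, and each was sampled as 3 biological replicates by RNA-seq of poly(A) RNA. The sources used here do not say whether a line was 1 clone or a pool, so the effect of a construct and that of the line carrying it cannot be told apart. The p-values measure the spread between these replicates.

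In the intrinsic pathway, cytochrome c leaves the mitochondria and binds APAF1, which then assembles into the apoptosome and recruits and activates caspase-9. Caspase-9 cleaves the effector caspases, while DIABLO relieves caspases from the inhibitor of apoptosis proteins. Caspase-8 and caspase-10 instead start the cascade at death receptors, caspase-2 is activated on the PIDDosome, and caspase-6 is an effector. E2F1 is a transcription factor known for driving both cell cycle entry and apoptosis, and APAF1 has been described as one of its target genes in other systems.

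Promoter sequences are shown for the only members that passed the test below, APAF1, which rose, and CASP8, which fell. Each is the 250 bases before the most upstream start site in RefSeq on GRCh38.p14, with the C and G of every CpG in capitals. That of APAF1 lies on the plus strand at chr12:98645040-98645289, and that of CASP8 on the plus strand at chr2:201233213-201233462.
APAF1: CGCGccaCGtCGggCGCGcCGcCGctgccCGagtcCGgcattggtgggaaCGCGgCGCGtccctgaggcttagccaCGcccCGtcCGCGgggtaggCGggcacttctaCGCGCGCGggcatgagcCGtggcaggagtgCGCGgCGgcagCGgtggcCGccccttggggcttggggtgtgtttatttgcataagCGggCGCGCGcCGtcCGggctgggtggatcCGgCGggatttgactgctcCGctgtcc
CASP8: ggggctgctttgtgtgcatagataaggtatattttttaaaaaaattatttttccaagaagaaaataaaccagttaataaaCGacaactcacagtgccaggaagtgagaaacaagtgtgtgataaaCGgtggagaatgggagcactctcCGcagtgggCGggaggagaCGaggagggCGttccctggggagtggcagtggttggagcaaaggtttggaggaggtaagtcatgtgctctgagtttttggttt
The APAF1 sequence held 38 CpGs and 73.6% G and C, more CpGs than 96.7% of 35116 RefSeq windows upstream of start sites. The CASP8 sequence held 6 CpGs and 45.6% G and C, more CpGs than 38.1% of the windows, whose medians were 11 CpGs and 58.0%. A promoter sequence was matched for 7 of the 8 genes, all except CASP10. The 300 bases from 250 before to 50 after each of their 14 start sites were searched on both strands for the E2F motif forms TTTCCCGC, TTTCGCGC, TTTGCCGC, and TTTGGCGC, which 3.31% of all windows held, and 0 matches were found. The same 4 forms without their leading T, which lie within the longer ones and were held by 13.0% of windows, matched at 1 of 2 windows of CASP2 (position -235, minus strand) and in that of CYCS (position -151, plus strand). A match is a run of letters only, and these windows are much shorter than a promoter region may be.

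The samples held between 11500537 and 31040903 reads on genes. WT replicate 2 stood apart, with only 31.2% of its reads on genes and 58.7% elsewhere, against 59.1 to 65.7% on genes in the other 11 samples, so the WT changes of the members are also given without it. Levels are CPM, counts scaled to a common total with TMM library sizes. E2F1 transcripts, endogenous and ectopic together, stood at 91.2 ± 9.43 CPM in pTRE, 1811 ± 445 in WT, 1158 ± 196 in R109K, and 1316 ± 187 in KK (SD, n = 3 each). All lines expressed the mesenchymal marker VIM at 1305 to 1653 CPM on average. Of the epithelial markers, KRT18 stood at 242 to 288 CPM and EPCAM at 11.4 to 13.3, while CDH1 (at most 1.38) and KRT19 (at most 0.0597) were near 0. KRT19 did not pass the filter on low counts, and none of the 3 tested epithelial markers was called in any line. The leukocyte marker PTPRC (0.257 to 0.460 CPM) and the endothelial markers PECAM1 and CDH5 (at most 0.319) were near 0. Of the 5 mesenchymal markers, 3 fell in WT and 4 each in R109K and KK (11.4%, 7.23%, and 10.7% of all tested genes fell), led by COL1A1 at 3557 CPM in pTRE and 567, 842, and 662 in WT, R109K, and KK. The CDH2 call in R109K was lost in all 6 fits without a single replicate (adjusted p up to 0.0261), and that of RUNX2 in KK without pTRE replicate 1 or 3 or KK replicate 2 or 3 (up to 0.0315). The leukocyte marker CD74 averaged 0.597 CPM in pTRE and had 1.25, 4.66, and 1.59 CPM in WT, the highest in replicate 2. CD74 averaged 1.39 CPM in R109K and 1.84 in KK, with every KK sample above every pTRE sample, but was called in neither. Its WT change passed the test with all samples (log2 1.99, adjusted p = 0.00717, edgeR) but not without WT replicate 2 (log2 1.25, mean 1.42 CPM, adjusted p = 0.0311) or without any single pTRE replicate (adjusted p up to 0.0331). The part of these shifts in the results below was not tested. In bulk RNA, fewer cells expressing a gene and less of its RNA per cell cannot be told apart.

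APAF1, which encodes the scaffold of the apoptosome, was the member that rose in every E2F1 line. It lies on the plus strand of chromosome 12 of GRCh37, from 99039068 to 99129211. The pTRE samples had 20.9, 22.9, and 22.4 CPM (505, 602, and 610 reads). The WT samples had 55.5, 71.2, and 46.9 CPM, the R109K samples 43.4, 30.6, and 40.8, and the KK samples 51.3, 31.1, and 50.3. No E2F1 sample fell within the pTRE range, and replicate 2 was the lowest sample of both R109K and KK and the highest of WT. The mean levels were 22.1 ± 1.05 CPM in pTRE, 57.9 ± 12.3 in WT, 38.3 ± 6.78 in R109K, and 44.2 ± 11.4 in KK (SD, n = 3 each).

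Against pTRE, the APAF1 change was 2.62-fold in WT (log2 1.39, standard error 0.20, adjusted p = 5.68e-05). It was 2.01-fold in KK (log2 1.01, standard error 0.20, adjusted p = 0.000857) and 1.74-fold in R109K (log2 0.80, standard error 0.19, adjusted p = 0.00631). These p-values come from edgeR's quasi-likelihood test, adjusted by the Benjamini-Hochberg method over all 16625 genes. A change was called at an adjusted p below 0.01. The KK change lay just past the 2-fold limit that the study also set, a log2 change of 1, and ranged from 0.89 to 1.20 without single replicates. The R109K change did not reach the limit. Without WT replicate 2, the WT change was 1.21 on the log2 scale (adjusted p = 0.000107).

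The call in R109K was close to the threshold. It was lost in 5 of the 6 fits that left out a single pTRE or R109K replicate, in which the log2 change ranged from 0.69 to 0.93 and the adjusted p from 0.00391 to 0.0332. Leaving out R109K replicate 2, the lowest sample, was the exception. DESeq2 gave a log2 change of 0.80 with an adjusted p of 0.000611.

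The exons of APAF1 share 750 bases, 9.67% of their length, with ANKS1B on the opposite strand, and the sources used here do not state whether counting used strand. ANKS1B itself had fewer reads. Each pTRE sample had 21 to 31, each WT sample 70 to 119, each R109K sample 52 to 74, and each KK sample 89 to 140, and their part in the APAF1 counts was not tested.

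**Figure D1:**
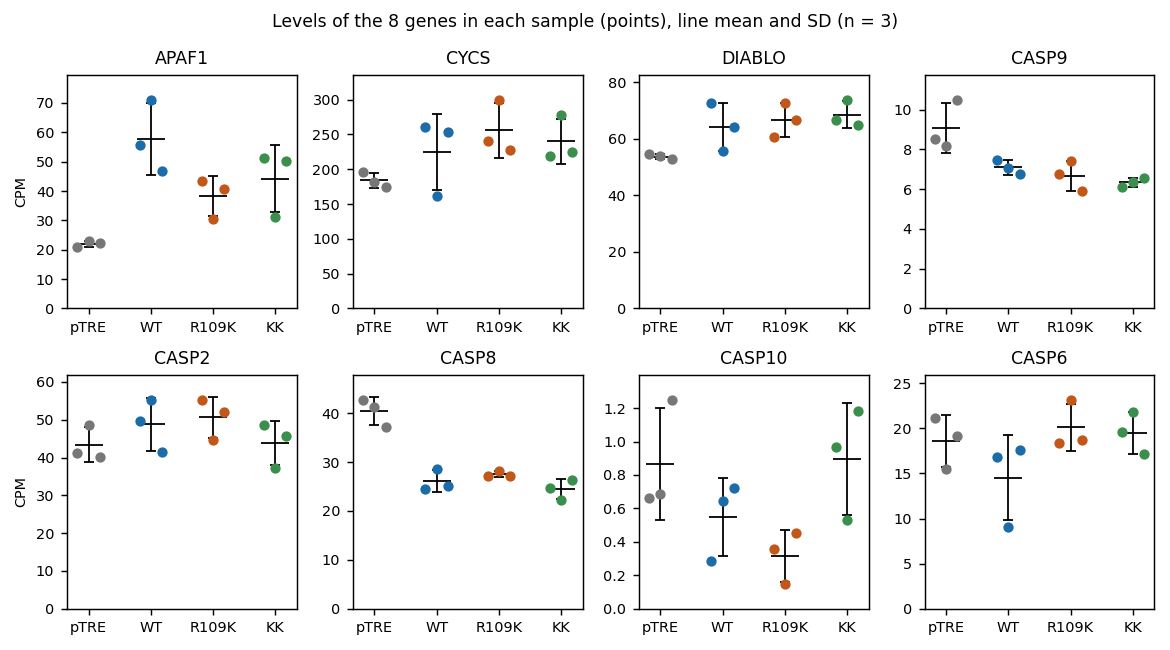
Levels of the 8 genes in CPM (vertical axes start at 0, 1 panel per gene) in each sample of pTRE, WT, R109K, and KK, with horizontal bars for the mean and error bars for the SD of 3 samples. All APAF1 points of the E2F1 lines lie above pTRE, and all CASP8 and CASP9 points lie below it.

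CASP8, the initiator caspase of death receptors, moved the other way. It lies on the plus strand of chromosome 2 of GRCh37, from 202098166 to 202226559. The exons of CASP8 share 343 bases, 4.74% of their length, with a same-strand long noncoding RNA that has no row in the counts. The part of that RNA in the CASP8 counts was not tested. The pTRE samples had 42.7, 41.3, and 37.1 CPM. The WT samples had 24.5, 28.6, and 25.1 CPM, the R109K samples 27.2, 28.3, and 27.1, and the KK samples 24.8, 22.2, and 26.4. All 9 E2F1 samples lay below the lowest pTRE sample, and the spread within each line was small.

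The CASP8 level in WT was 0.643 of that in pTRE (log2 -0.64, standard error 0.11, adjusted p = 0.000391, edgeR). In R109K it was 0.681 (log2 -0.55, standard error 0.11, adjusted p = 0.00161) and in KK 0.606 (log2 -0.72, standard error 0.11, adjusted p = 0.000133). None of these falls reached 2-fold. The CASP8 calls were kept in every alternative and in every fit without a single replicate.

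CASP10, which lies beside CASP8 on chromosome 2 and encodes the related initiator, was hardly expressed. Its counts were 16, 18, and 34 reads in pTRE, 8, 8, and 20 in WT, 11, 4, and 11 in R109K, and 28, 11, and 30 in KK. In CPM, the R109K samples had 0.357, 0.145, and 0.450, below the lowest pTRE sample (0.661) and the lowest KK sample (0.528), while the raw reads of R109K and KK overlapped. The log2 change was -1.45 in R109K (standard error 0.49, adjusted p = 0.0398, edgeR), -0.68 in WT (adjusted p = 0.269), and 0.06 in KK (adjusted p = 0.939), so that no change was called. The 95% interval in KK ran from -0.90 to 1.01, and differences of this size were not detectable at this depth.

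CASP9, the initiator recruited by APAF1, stood lower in all E2F1 lines without passing the test. The pTRE samples had 8.51, 8.17, and 10.5 CPM. The WT samples had 7.48, 7.07, and 6.76 CPM, the R109K samples 6.74, 7.41, and 5.90, and the KK samples 6.09, 6.39, and 6.55. As with CASP8, no E2F1 sample reached the pTRE range. The log2 change was -0.35 in WT (95% interval -0.67 to -0.04, adjusted p = 0.0709, edgeR), -0.44 in R109K (-0.75 to -0.13, adjusted p = 0.0362), and -0.52 in KK (-0.83 to -0.20, adjusted p = 0.0128). DESeq2 put the KK change past the threshold, at -0.51 (adjusted p = 0.00985).

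CYCS, the gene of cytochrome c, had the highest CPM of the 8. Its pTRE samples had 196, 181, and 174 CPM, and the WT samples had 261, 162, and 253. The R109K samples had 240, 300.1, and 227 CPM, and the KK samples 219, 278, and 225. All R109K and KK samples lay above pTRE, whereas WT replicate 2 lay below all pTRE samples. The log2 change was 0.29 in WT (95% interval -0.07 to 0.66, adjusted p = 0.181, edgeR), 0.48 in R109K (0.11 to 0.84, adjusted p = 0.0493), and 0.39 in KK (0.02 to 0.75, adjusted p = 0.0900). Without WT replicate 2, the WT value was 0.48 (adjusted p = 0.0124). With only the 6 samples compared in the fit, the R109K value was 0.47 and passed (adjusted p = 0.00297). CYCS has processed copies in the genome that can share its reads, so its counts are uncertain, and the copy with its own row, CYCSP52, had 2 to 8 reads per sample.

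DIABLO, whose protein leaves the mitochondria and binds the inhibitor of apoptosis proteins, showed a similar small difference. The pTRE samples were close together at 54.6, 53.8, and 52.8 CPM. The WT samples had 72.7, 55.6, and 64.3 CPM, the R109K samples 60.7, 72.7, and 66.7, and the KK samples 66.8, 73.9, and 65.1. Every E2F1 sample lay above every pTRE sample, but no change was called. The log2 change was 0.26 in WT (95% interval 0.01 to 0.51, adjusted p = 0.0896, edgeR), 0.31 in R109K (0.06 to 0.56, adjusted p = 0.0582), and 0.35 in KK (0.10 to 0.60, adjusted p = 0.0272). DIABLO shares 970 exon bases (13.9%) with B3GNT4 on the opposite strand, which stood at 2.88 to 3.45 CPM, and up to 31.5% of its exon bases with a same-strand locus that has no row in the counts, so its counts are uncertain as well.

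CASP2 and CASP6 overlapped between pTRE and every E2F1 line. CASP2, the caspase of the PIDDosome, had pTRE levels of 40.1 to 48.7 CPM. The WT samples ran from 41.4 to 55.3 CPM, those of R109K from 44.7 to 55.1, and those of KK from 37.3 to 48.6. Its log2 change was 0.17 in WT (95% interval -0.13 to 0.47), 0.22 in R109K (-0.07 to 0.52), and that in KK was 0.02 (-0.28 to 0.32). The effector CASP6 had pTRE levels of 15.4 to 21.1 CPM. The WT samples ran from 9.07 to 17.6 CPM, those of R109K from 18.4 to 23.1, and those of KK from 17.2 to 21.8. Its log2 change was -0.33 in WT (95% interval -0.77 to 0.10), 0.12 in R109K (-0.31 to 0.54), and that in KK was 0.07 (-0.36 to 0.50). The lowest CASP6 value was that of WT replicate 2, and without it the WT change was -0.11 (adjusted p = 0.627, edgeR). The intervals of both genes include 0 and, in each line, exclude a 2-fold change.

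**Figure D2:**
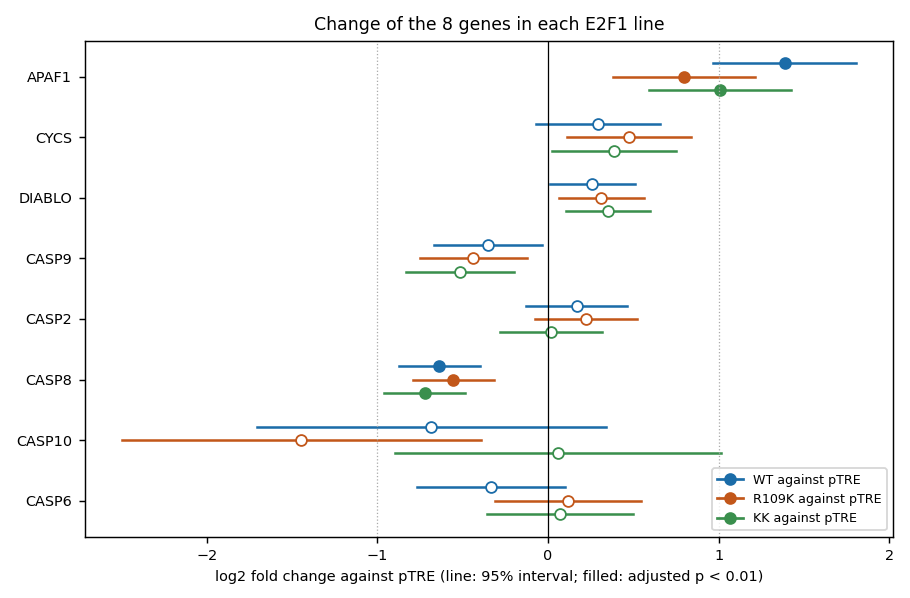
Log2 fold change against pTRE (horizontal axis) of the 8 genes in WT, R109K, and KK, with 95% intervals from edgeR. Filled points had an adjusted p below 0.01, and only APAF1 (0.80 to 1.39) and CASP8 (-0.72 to -0.55) have filled points.

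Across the 8 genes, 1 rose and 1 fell in each line. In WT, 14.8% of all tested genes rose and 11.4% fell. In R109K these shares were 10% and 7.23%, and in KK 13.8% and 10.7%. The counts of 2 of 8 in either direction thus stood beside backgrounds of 26.2%, 17.3%, and 24.4% and were read as near the background. With the 2-fold limit added, 1, 0, and 1 members passed in WT, R109K, and KK, beside 11.8%, 7.19%, and 10.9% of tested genes. The member in KK was APAF1, whose change fell below 2-fold in fits without single replicates. At an unadjusted p below 0.05 by edgeR there were 4, 6, and 5 members in WT, R109K, and KK, beside 49%, 38.6%, and 45.6% of tested genes. Without WT replicate 2, the log2 change in WT of the members for which it has not been given above was -0.71 for CASP8 (adjusted p = 0.000260, edgeR), -0.35 for CASP9, -0.79 for CASP10, 0.35 for DIABLO, and 0.07 for CASP2.

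Samples did not overlap with pTRE for 2 members above and 2 below in WT (25.2% and 26.3% of tested genes), 3 and 3 in R109K (24.3% and 22.9%), and 3 and 2 in KK (24.9% and 24.5%). The median log2 change of the members was -0.08 in WT, 0.17 in R109K, and 0.06 in KK, beside 0.00, 0.00, and -0.01 for all tested genes. All 3 comparisons share the pTRE samples and are therefore not independent of each other.

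The E2F1 lines were next compared directly. Mean E2F1 RNA also differed between them (1811 CPM in WT, 1158 in R109K, and 1316 in KK). The substitution, the E2F1 level, and the line therefore cannot be told apart in these comparisons. None of the 8 genes was called between R109K and WT, KK and WT, or R109K and KK by edgeR, where 0.71%, 0.012%, and 0.132% of tested genes were called in either direction. At an unadjusted p below 0.05 there were 2, 0, and 1 members, beside 22.3%, 8.51%, and 12.4% of tested genes, and DESeq2 called 0 members in each. The median log2 difference of the members was 0.05, 0.00, and 0.06.

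The APAF1 level was lower in every R109K sample than in every WT sample, with a log2 difference of -0.59 (95% interval -1.001 to -0.18, adjusted p = 0.0982, edgeR). Without WT replicate 2, which had the highest APAF1 level, this difference was -0.43 (adjusted p = 0.306). APAF1 overlapped between KK and WT (-0.38, interval -0.79 to 0.03, and -0.21 without WT replicate 2) and between R109K and KK (-0.21, interval -0.62 to 0.20). The larger change of APAF1 in WT against pTRE was thus not shown to differ from that in R109K or KK.

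The CASP8 log2 difference was 0.08 between R109K and WT (95% interval -0.16 to 0.32), -0.09 between KK and WT (-0.33 to 0.15), and 0.17 between R109K and KK (-0.07 to 0.41). The last was a difference without overlap of samples, but it was not called (adjusted p = 0.620, edgeR). The other members without overlap were CASP6, higher in R109K than in WT by 0.45 (adjusted p = 0.209), CASP9, lower in KK than in WT by 0.16 (adjusted p = 0.691), and CASP10, lower in R109K than in KK (-1.502, adjusted p = 0.176). Without overlap, 13.1% of tested genes were higher and 14% lower in R109K than in WT, 4.81% and 5.16% in KK than in WT, and 9.56% and 11.4% in R109K than in KK. Without WT replicate 2, the CASP6 difference between R109K and WT was 0.22 (adjusted p = 0.588), and the CASP8 differences from WT were 0.15 in R109K and -0.02 in KK.

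Levels of different genes were compared per kilobase of annotated exons. In pTRE the order was CYCS at 31.8 ± 1.89 CPM per kilobase, CASP6 at 9.55 ± 1.48, DIABLO at 7.72 ± 0.129, CASP8 at 5.58 ± 0.401, CASP2 at 5.41 ± 0.582, APAF1 at 2.84 ± 0.136, CASP9 at 1.72 ± 0.240, and CASP10 at 0.0969 ± 0.0373 (SD, n = 3 each). Of the neighbors in this order, only CASP8 and CASP2 overlapped between samples. CYCS led and CASP9 and CASP10 closed the order in every line. APAF1 stood in place 6 in pTRE, 5 in R109K, and 4 in WT and KK. Its samples overlapped those of CASP2 in every E2F1 line, and in WT also those of CASP6 and DIABLO. CASP8 stood in place 4 in pTRE and 6 in the E2F1 lines. The places depend on the length used: with the longest annotated transcript, APAF1 stood in place 6 in every line, and CASP8 in place 3 in pTRE and WT and 4 in R109K and KK. In pTRE, that length put DIABLO in place 2 at 17.32, CASP8 at 13.79, and CASP6 in place 4 at 11.35 CPM per kilobase.

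**Figure D3:**
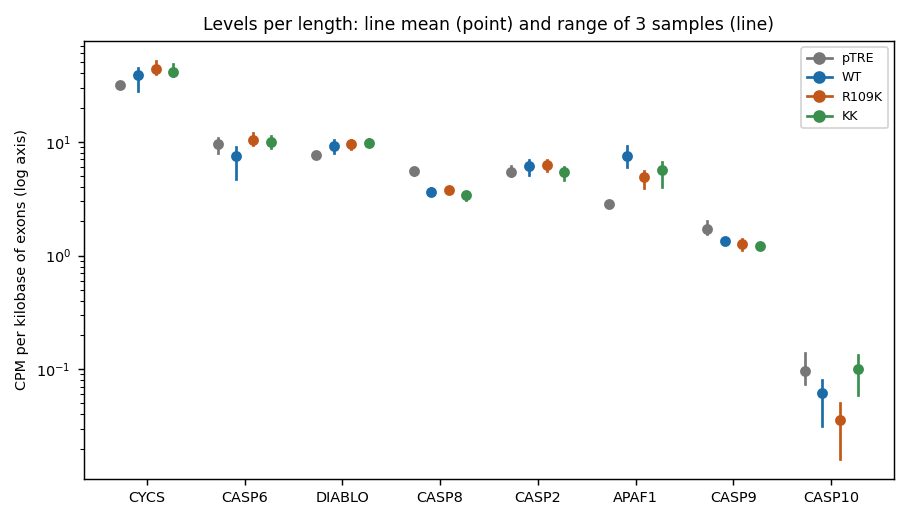
Mean level in CPM per kilobase of exons (vertical log axis) of the 8 genes in pTRE, WT, R109K, and KK, with lines for the range of 3 samples. The genes are ordered by their pTRE level, from CYCS at 31.8 to CASP10 at 0.0969.

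Among the genes with the pattern most like that of APAF1 over the 12 samples was PHLPP1, whose log2 CPM, centered on the mean of each gene, differed from that of APAF1 by a root mean square of 0.0995. APAF1 itself varied by 0.551 around its mean on this scale. For CASP8, which varied by 0.294, the nearest of 14511 ranked genes were TIA1 (0.0635) and RAB30 (0.0877). All 12 samples of the 4 lines are in this measure, which is a description only.

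Among 42 further genes of the caspase pathways, 36 were tested. In WT 5 rose and 3 fell, in R109K 4 rose and 1 fell, and in KK 4 rose and 2 fell. Their median log2 changes were -0.06, -0.01, and -0.01. As for the members, these counts stood beside 26.2%, 17.3%, and 24.4% of all tested genes called.

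PIDD1, the scaffold on which caspase-2 is activated, ran from 31.7 to 46.5 CPM in the pTRE samples, from 67.7 to 80.2 in WT, from 82.3 to 87.0 in R109K, and from 77.2 to 102.1 in KK. It rose 2.00-fold in WT (log2 1.00, adjusted p = 8.31e-05, edgeR), 2.27-fold in R109K (1.18, adjusted p = 3.13e-05), and 2.31-fold in KK (1.21, adjusted p = 1.51e-05). The PIDD1 change in WT lay at the 2-fold limit and ranged from 0.90 to 1.19 without single replicates, with the call kept. CRADD, the adaptor between PIDD1 and caspase-2, was not called in any line (log2 0.05, 0.33, and 0.26).

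Of 6 tested inhibitor of apoptosis proteins, 2 rose in WT, 1 in R109K, and 1 in KK, beside 14.8%, 10%, and 13.8% of all tested genes, and none fell. NAIP rose 2.35-fold in WT (log2 1.23, adjusted p = 0.000260, edgeR) and 1.94-fold in KK (0.95, adjusted p = 0.00197), with 0.61 in R109K (adjusted p = 0.0369). Without WT replicate 2, the NAIP change in WT was 0.92, below 2-fold, and still called (adjusted p = 0.000203, edgeR). The NAIP call in KK was lost without pTRE replicate 1 (0.85, adjusted p = 0.0140). BIRC2 rose in WT (0.52, adjusted p = 0.00891), a call lost without WT replicate 1 (0.38, adjusted p = 0.0521) and without any single pTRE replicate (adjusted p up to 0.0482). BIRC5, named after its values were seen as the only call of this list in R109K, rose there by 0.68 (adjusted p = 0.00369), a call kept only without R109K replicate 3 among the 6 fits that leave out a replicate (adjusted p up to 0.0200 in the others). XIAP, the direct inhibitor of caspase-9 to which DIABLO binds, had log2 changes of -0.02 (95% interval -0.37 to 0.34), -0.19 (-0.55 to 0.16), and -0.22 (-0.58 to 0.14). Its WT samples had 41.1, 61.4 (replicate 2), and 38.9 CPM, and the pTRE samples 39.2 to 55.9. The WT mean without replicate 2 was 40.0 CPM, beside 47.4 in pTRE. None of the 4 other mitochondrial proteins and none of the 5 regulators of the apoptosome was called by edgeR in any line, and at an unadjusted p below 0.05 there were 2 and 1 of them in WT, 0 and 0 in R109K, and 2 and 0 in KK, beside 49%, 38.6%, and 45.6% of all tested genes.

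Of the 8 tested genes of the death receptor complex that recruits caspase-8, 2 fell in WT and 1 each in R109K and KK, beside 11.4%, 7.23%, and 10.7% of all tested genes, and none rose. TNFRSF1A, a receptor of tumor necrosis factor, ran from 178 to 222 CPM in the pTRE samples, from 90.1 to 118.5 in WT, from 112 to 135 in R109K, and from 90.2 to 107.6 in KK, with no E2F1 sample in the pTRE range. It fell in WT (log2 -0.95, adjusted p = 6.56e-05, edgeR), R109K (-0.65, adjusted p = 0.00212), and KK (-0.96, adjusted p = 5.86e-05). The R109K call was lost without pTRE replicate 3 (-0.54, adjusted p = 0.0141) or R109K replicate 1 (-0.59, adjusted p = 0.0167). Its adaptor TRADD fell in WT (-0.99, adjusted p = 0.00273), a call lost without pTRE replicate 3 (-0.78, adjusted p = 0.0202) or WT replicate 1 (-0.93, adjusted p = 0.0138). FADD, which binds caspase-8 directly, was not called (-0.19, -0.04, and -0.04).

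Among 7 tested caspase substrates, ROCK1, a kinase that acts on the cytoskeleton, rose in every line (log2 0.71, 0.45, and 0.65, adjusted p = 0.000232, 0.00927, and 0.000499, edgeR). Its R109K call was lost in 5 of the 6 fits without a replicate, all except that without pTRE replicate 1, with an adjusted p of up to 0.0475. LMNA, the gene of lamin A and lamin C, fell in WT (-0.74, adjusted p = 0.00121) and KK (-0.60, adjusted p = 0.00570), with -0.35 in R109K (adjusted p = 0.0992). Its KK call was lost without pTRE replicate 2 or 3 or KK replicate 1 or 3 (adjusted p up to 0.0356).

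**Figure D4:**
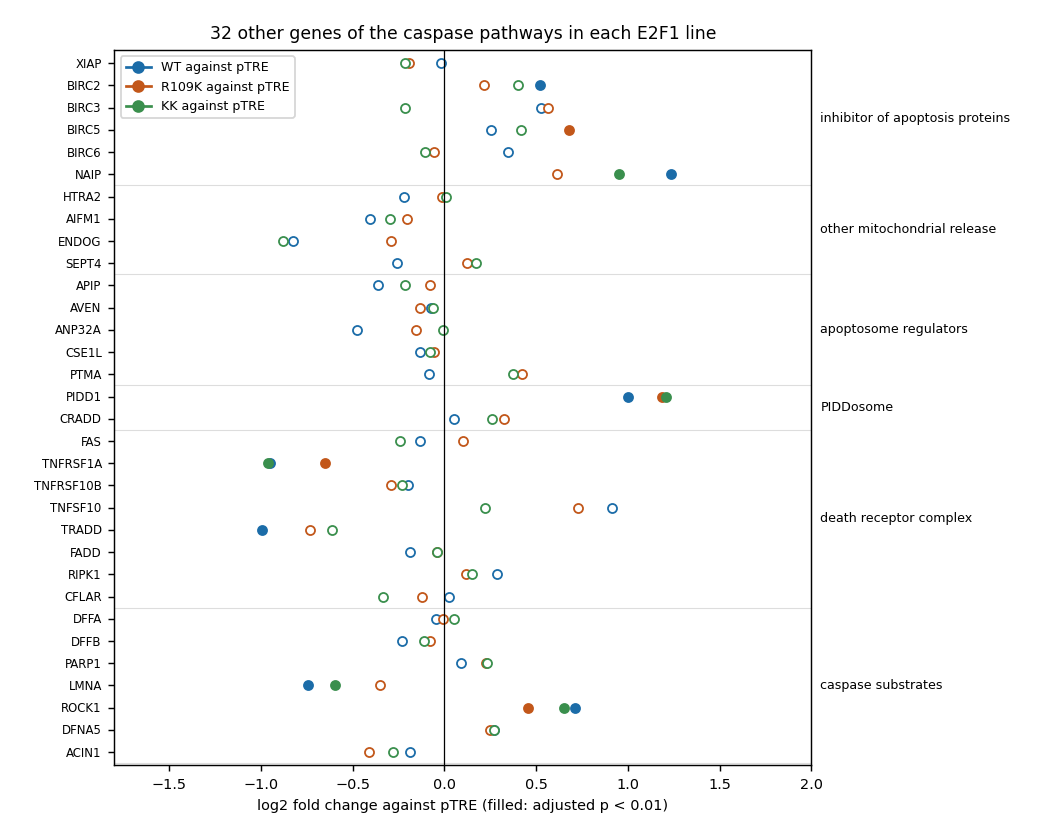
Log2 fold change against pTRE (horizontal axis) of 32 of the other tested genes of the caspase pathways, in 6 lists, for WT, R109K, and KK. Filled points had an adjusted p below 0.01: PIDD1 and ROCK1 are filled on the right and TNFRSF1A on the left in all 3 lines.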

How the data were processed

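RNA-seq was performed on 12 samples of U2OS Tet-On lines, 3 biological replicates per line (pTRE, WT, R109K, KK). The authors trimmed reads with Trim Galore 0.4.3, aligned them to hg19 with STAR 2.5.1, and deposited whole-number counts per gene symbol, without normalization. The annotation and the strand setting of the counting are not given in the sources used here, although the library kit was directional.

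Counts were analyzed with edgeR 4.0.16 in R 4.3.3: filterByExpr (16625 genes kept), TMM, and 1 quasi-likelihood model (glmQLFit and glmQLFTest) of all 12 samples, with Benjamini-Hochberg adjustment over all genes. Genes were called at an adjusted p below 0.01. The common dispersion was 0.0239, and total counts of 11500537 to 31040903 per sample set the precision. Standard errors and 95% intervals come from the model. The members and lists were chosen with earlier results of these data known. Named genes were the 8 members, E2F1, XIAP, up to 4 genes per list called in WT against pTRE, and the 2 genes nearest in pattern to each called member, and some genes named by this rule are not reported here. Exon lengths and positions come from GENCODE on GRCh37, and promoters from RefSeq on GRCh38.p14. The test was also run on simulated counts laid out as the pTRE and WT samples only, not as the model of all 12 samples, and the outcome is not reported here.

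Alternatives were DESeq2 1.42.0, RLE normalization, no filter, at least 10 counts in every sample, only the 6 samples compared, the replicate number as a block, and leaving out each replicate. For E2F1 and the other called genes these were added after seeing the data.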

Additional observations from a re-analysis of the deposited data

How the results depend on the processing

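The calls of APAF1 and CASP8 in WT and KK and of CASP8 in R109K held under DESeq2, RLE normalization, no filter, a minimum of 10 counts in every sample, only the 6 samples compared, the replicate block, and every fit without a single replicate. Replicate numbers were not taken to pair the samples, since no label says what a number shares and 5 of 18 same-numbered pairs correlated by over 0.1: deviations from the line means correlated by 0.0436 on average over these pairs (-0.295 to 0.470) and by -0.0235 over 36 others (-0.383 to 0.314), and 6 of 12 samples correlated best with their own number. Some same-numbered samples were close, as a hint from the data: R109K and KK replicate 2 differed by a chi-square of 15.3 per degree of freedom, and each differed more from the other replicates of its line. WT and KK differed by 7.66 in replicate 1, 79.3 in replicate 2, and 6.07 in replicate 3. For comparison, replicates 1 and 3 differed by 11.6 within WT and by 7.51 within KK. With the replicate block, APAF1 in R109K was at 0.78 (adjusted p = 0.0150), which left 1 member changed there in place of 2, and 0 of all genes differed between KK and WT. Without single replicates, R109K against pTRE had 1 to 2 members, 1 to 5 other pathway genes, and 1848 to 2177 of all genes changed (2868 with all samples). With only the 6 samples compared, 9 other pathway genes changed in R109K in place of 5. The counts of all genes between E2F1 lines moved most. For R109K against WT, 118 genes became 557 with DESeq2, 220 without a filter, 0 with only the 6 samples, and 2 to 298 without single replicates. For KK against WT, 2 became 10, 5, 0, and 0 to 2 in the same order. For R109K against KK, 22 became 255, 62, 3, and 1 to 11, and 11 with the minimum of 10 counts, which gave no value for CASP10. The cause of these shifts was not tested. Members near 0 changed sign without single replicates. Against pTRE these were CASP6 in R109K (-0.0008 to 0.22), and CASP2 (-0.061 to 0.12), CASP6 (-0.045 to 0.17), and CASP10 (-0.19 to 0.42) in KK. Between R109K and WT they were CASP2 (-0.051 to 0.15), CYCS (-0.0098 to 0.30), and DIABLO (-0.042 to 0.15), and between KK and WT, CYCS (-0.10 to 0.21). Between R109K and KK they were CASP6 (-0.0695 to 0.13), CASP9 (-0.003 to 0.16), CYCS (-0.041 to 0.21), and DIABLO (-0.11 to 0.021). Low counts limit CASP10, at 4 to 34 reads per sample.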
